A study of Saccharomyces cerevisiae with 6 samples.

Results

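The 9 genes described here encode serine-rich mannoproteins that budding yeast fixes to its cell wall through a glycosylphosphatidylinositol (GPI) anchor: CWP1, CWP2, SED1, TIP1, TIR1, TIR2, TIR3, TIR4 and DAN1. They were found by the gene names in the platform annotation of the array, which gave each of the 9 genes 1 probe set, out of 5449 named genes. The family was picked with the yEVenus minus empty plasmid differences of these arrays known, CWP1 being among the largest rises. The differences of the members are therefore a description, without a test of their own.

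Total RNA came from Saccharomyces cerevisiae lacking SSE1, the gene for an Hsp110 chaperone that serves cytosolic Hsp70. The deletion was present in every sample, and no strain with SSE1 was part of the design. The control group (empty plasmid, 3 arrays) carried a plasmid without insert, and the other group (yEVenus plasmid, 3 arrays) a multi-copy yEVenus plasmid. yEVenus is a yellow fluorescent protein, overproduced here as a protein of no use to the cell. Each array came from an independent colony grown at 30°C in SC-MSG medium lacking leucine to early mid-log phase (exponential growth), with no other treatment. The sources used here give neither the promoter of yEVenus nor the plasmid marker nor the strain background. Levels are of RNA from whole cultures, so more RNA per cell and more cells with that RNA cannot be told apart. Affymetrix arrays were hybridised with cRNA primed from the 3′ end, and the deposited unit is a log2 level per probe set.

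The yeast wall is a mesh of glucan and chitin covered by mannoproteins, many of which are GPI proteins that are cut from their lipid and joined to β-1,6-glucan. Such proteins carry serine- and threonine-rich stretches that are O-mannosylated. CWP1, CWP2 and SED1 are known as coat proteins of cells grown in air. The TIR and DAN genes are known for induction by cold shock or lack of oxygen, when they replace the Cwp proteins; in air they are held down by the repressors Rox1 and Mot3 with the Tup1-Cyc8 corepressor, while Upc2 activates them when sterols run short.

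SSE1 itself was at the array floor in both groups, with a log2 level of 3.14 ± 0.116 for the empty plasmid and 3.17 ± 0.071 for yEVenus (SD, n = 3 each). The arrays differed between groups in ways that touch every gene. Of 8 yeast control genes with separate 3′ and 5′ probe sets, 7 had a wider 3′ minus 5′ gap on each yEVenus array than on any empty-plasmid array, URA3, at 2.74 to 3.03 near the floor, being the exception; the mean gap was 1.59 ± 0.013 and 2.17 ± 0.052 (SD of array means, n = 3 each). Of 21 control probe sets for Bacillus subtilis genes, 19 were above all empty-plasmid arrays on every yEVenus array, with a median log2 difference of 1.72, against 0.54 for 18 controls of E. coli and phage P1. Short genes were higher and long genes lower with yEVenus: the median log2 difference was 0.57 up to 300 nt and -0.28 above 3600 nt. Genes of chromosomes I and II had medians of -0.44 and -0.32, where those of all 5449 genes had -0.07. The part of these differences in the results below was not tested beyond 2 recalculations, of which the first removed a trend on coding length and the second the median of each chromosome from each array.

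In limma, 70.4% of the 5449 genes changed at an adjusted p under 0.05, 29.3% upward and 41% downward; below, a gene "rose" or "fell" only if it passed this threshold. Of the 9 wall protein genes, 6 rose (CWP1, TIR1, TIR2, TIR3, TIR4, DAN1), 1 fell (SED1) and 2 (CWP2, TIP1) were not called. The count of 7 became 4 without yEVenus replicate 2 and 3 against a minimum change of 1.2-fold. Median centring gave 7 rises and 0 falls, CWP2 replacing SED1 among the calls. With chromosome medians removed 8 rose and 0 fell, CWP2 and TIP1 gaining a call and SED1 losing it. Of all genes, 1870 then rose and 1850 fell. A trended prior variance (eBayes with trend) gave 6 rises and 2 falls, CWP2 and TIP1 gaining a call and TIR4 losing it. Of all genes, 1620 rose and 2274 fell in that setting. The groups did not overlap for 8 of the 9, where 74.9% of all genes had no overlap: 6 lay above (31.5% of all genes) and 2 below (43.4%). The median log2 difference of the 9 was 0.23. With the length trend removed it was 0.36, with 5 rises and 3 falls, where 29.4% of all genes rose and 35.8% fell. Rises of 2-fold or more belonged to CWP1 and TIR3, as they did to 3.49% of all genes, and no member had such a fall (1.3% of all genes).

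**Figure D1:**
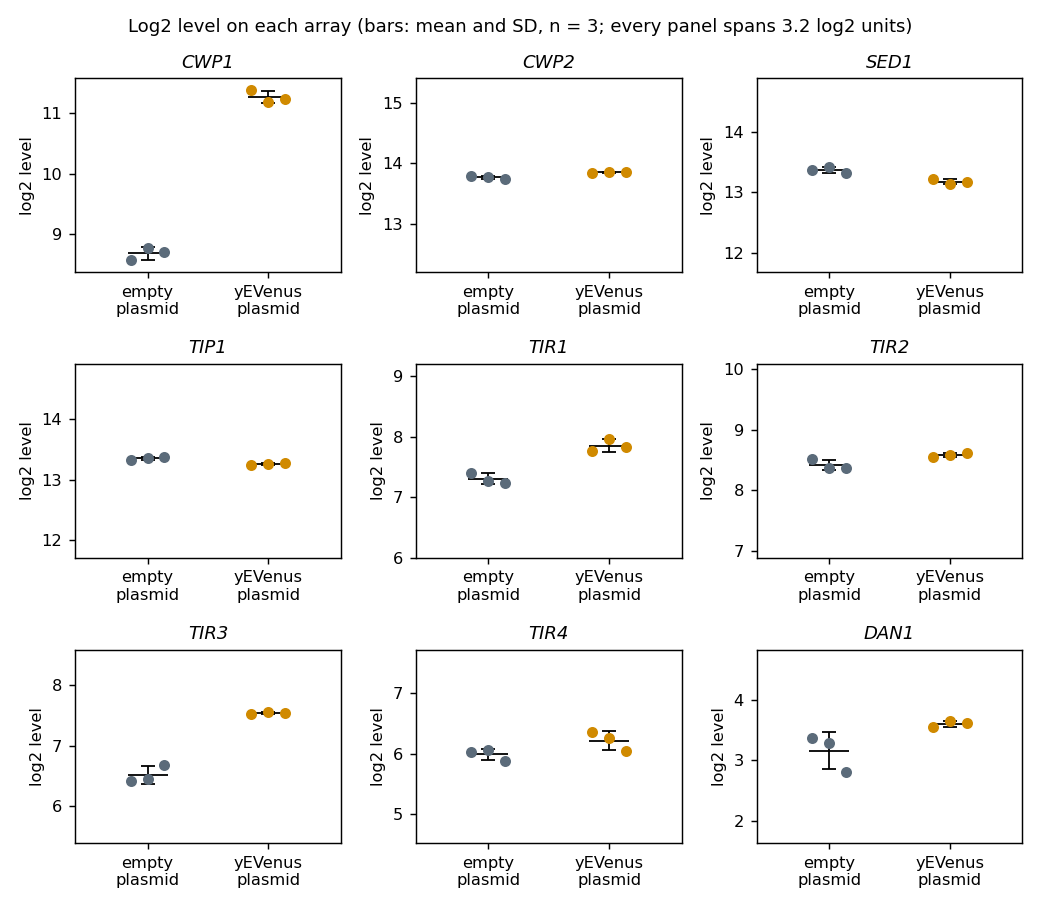
Log2 level of each of the 9 wall protein genes on the 3 empty-plasmid and 3 yEVenus arrays; points are arrays, horizontal bars the group mean and whiskers the SD (n = 3), and every panel spans the same number of log2 units. CWP1 goes from 8.68 to 11.26, TIR3 from 6.52 to 7.54, and only TIR4 has overlapping groups.

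CWP1 (YKL096W, chromosome XI, 720 nt), a mannoprotein known to gather at the birth scar of the daughter cell, had the widest difference of the family. With the empty plasmid its log2 level was 8.57, 8.77 and 8.71 in replicates 1 to 3. With yEVenus it was 11.37, 11.18 and 11.23. All yEVenus arrays lay above all empty-plasmid arrays, with 2.41 log2 units between the nearest arrays of the groups. The difference was 2.58 ± 0.0743 (SE), which is 5.97-fold, the second largest rise among the 5449 genes. The 500 genes closest to it in coding length had a median difference of 0.08, and the 293 genes of chromosome XI one of -0.10. The value of CWP1 changed little with the length trend removed (2.46) or with chromosome medians removed (2.65).

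CWP2 (YKL096W-A, chromosome XI, 279 nt), a small and major structural wall mannoprotein, lies next to CWP1 in the gene order of RefSeq assembly R64. Its log2 level was 13.79, 13.77 and 13.74 with the empty plasmid. It was 13.84, 13.86 and 13.85 with yEVenus. The groups were apart by only 0.05, and the difference of 0.08 ± 0.0454 (SE) was not called. CWP2 was called at the same difference with a trended prior variance (limma, adjusted p = 0.00739). It was also called with chromosome medians removed, at 0.15. Its sign rested on the treatment of length: genes of like length had a median difference of 0.56, and with the length trend removed CWP2 was at -0.54. On the other side of CWP1, the next genes YJU2 (near the floor, at 4.04 and 3.32) and YJU3 fell by 0.73 and 0.62 (limma, adjusted p = 0.00114 and 3.40e-05); both were named after their values were seen.

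SED1 (YDR077W, chromosome IV, 1017 nt), a structural wall glycoprotein best known from stationary phase and stress, was slightly lower with yEVenus. The empty-plasmid arrays read 13.37, 13.42 and 13.31. The yEVenus arrays read 13.22, 13.14 and 13.16. All yEVenus arrays were below all empty-plasmid arrays, by at least 0.09. The difference was -0.19 ± 0.0523 (SE), or -0.17 with the length trend removed; it was no longer called with median centring (-0.12) or chromosome medians removed (-0.12).

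TIP1 (YBR067C, chromosome II, 633 nt), the temperature-shock mannoprotein after which the Tip1 family is named, had the same direction. It read 13.32, 13.35 and 13.37 with the empty plasmid. With yEVenus it read 13.25, 13.26 and 13.27. The groups did not overlap, yet the difference of -0.09 ± 0.0456 (SE) was not called. TIP1 was called at the same difference with a trended prior variance (limma, adjusted p = 0.0105). Its sign depended on the reference: the 387 genes of chromosome II had a median of -0.32, and TIP1 was at 0.21 with chromosome medians removed but at -0.28 with the length trend removed, called in both.

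CWP2, SED1 and TIP1 were all near the top of the signal range, where the brightest probe set of an array read 14.17 to 14.24. Over the 160 genes with a mean log2 level above 13, the median absolute difference was 0.14, against 0.30 over all genes. The largest absolute difference among those 160 genes was 0.85. Whether the array signal was compressed at these levels was not tested.

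**Figure D2:**
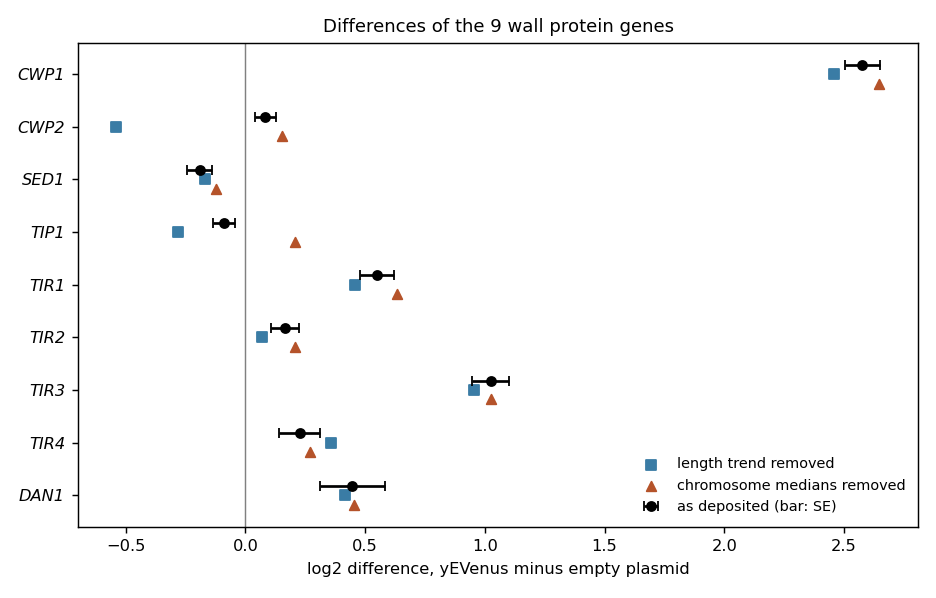
Log2 difference (yEVenus minus empty plasmid, horizontal axis) of the 9 wall protein genes as deposited (circles, bar: SE), with the length trend removed (squares) and with chromosome medians removed (triangles). CWP1, TIR1 and TIR3 keep their place, while CWP2 goes to -0.54 and TIP1 to -0.28 or 0.21.

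TIR3 (YIL011W, chromosome IX, 810 nt), needed for growth without oxygen, was the member with the next widest difference after CWP1. The empty-plasmid arrays read 6.42, 6.44 and 6.69, replicate 3 being the highest. The yEVenus arrays read 7.52, 7.56 and 7.54, closer together than those of the control. The groups were 0.83 apart. The difference was 1.02 ± 0.077 (SE), or 2.03-fold, and it ran from 0.97 to 1.11 when single arrays were left out.

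TIR1 (YER011W, chromosome V, 765 nt), a cold-shock and anaerobic wall protein, was higher too. It read 7.40, 7.27 and 7.23 with the empty plasmid. It read 7.76, 7.96 and 7.83 with yEVenus. Every yEVenus array was above every empty-plasmid array. The difference was 0.55 ± 0.072 (SE), 0.46 with the length trend removed and 0.63 with chromosome medians removed.

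TIR2 (YOR010C, chromosome XV, 756 nt), another cold-shock mannoprotein, differed little. The empty-plasmid arrays read 8.51, 8.36 and 8.37, with replicate 1 the highest. The yEVenus arrays read 8.55, 8.58 and 8.61. Only 0.03 separated the groups. The difference was 0.16 ± 0.0577 (SE) and went to 0.07, not called, with the length trend removed. The call also ended without empty-plasmid replicate 2 or 3 and without yEVenus replicate 1, 2 or 3, with differences of 0.14 to 0.18.

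TIR4 (YOR009W, chromosome XV, 1464 nt), the longest of the 9 genes and needed for anaerobic growth, was the member whose groups overlapped. It read 6.02, 6.06 and 5.89 with the empty plasmid. It read 6.35, 6.25 and 6.05 with yEVenus, where replicate 3 fell below the second empty-plasmid array. The difference was 0.23 ± 0.087 (SE). Its call ended without empty-plasmid replicate 1 (0.24) or 3 (0.17), without yEVenus replicate 1 (0.16) or 2 (0.21), with cyclic loess (0.20) and with quantile normalization (0.16). It also ended at the same difference with a trended prior variance (eBayes with trend) and with every probe set tested, while removal of the length trend raised it to 0.36.

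DAN1 (YJR150C, chromosome X, 897 nt), which aerobic cells keep shut, was near the array floor. Its empty-plasmid arrays read 3.37, 3.29 and 2.81. Its yEVenus arrays read 3.55, 3.65 and 3.61. Beside these, the deleted SSE1 read 3.02 to 3.24 on the empty-plasmid arrays and 3.09 to 3.23 on the yEVenus arrays. The DAN1 groups did not overlap, and the difference was 0.45 ± 0.135 (SE). It was 0.27 without the low empty-plasmid replicate 3, and the call ended without yEVenus replicate 2 (0.42). The deposited table holds no detection call, so presence of DAN1 RNA cannot be stated for either group.

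**Figure D3:**
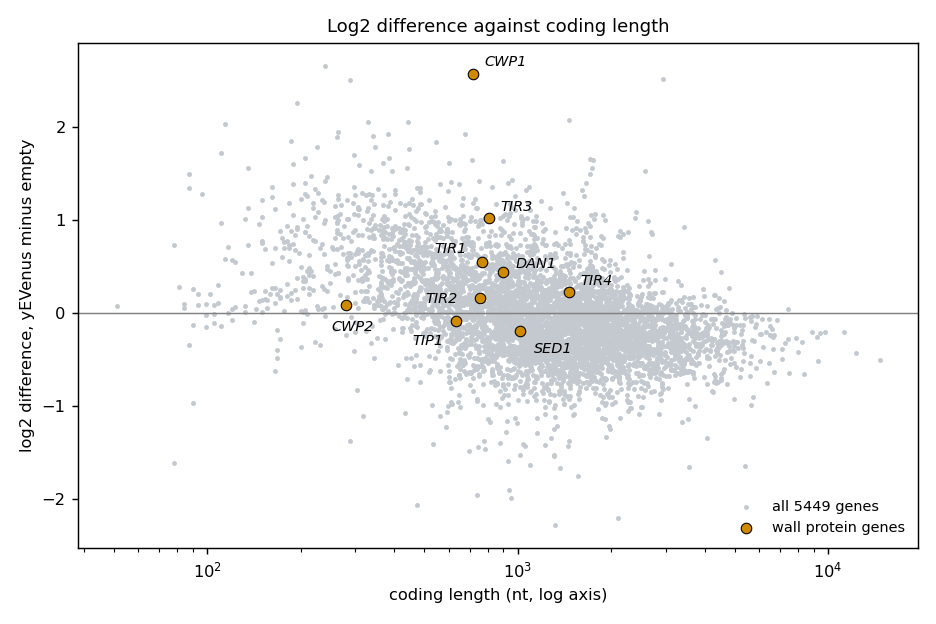
Log2 difference (yEVenus minus empty plasmid) of all 5449 genes against coding length on a log axis, with the 9 wall protein genes marked. CWP1 (720 nt) and TIR3 (810 nt) lie above most genes of their length, and CWP2 (279 nt) at 0.08 lies under the 0.56 of genes of its length.

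In gene order, TIR4 and TIR2 are neighbours, and the gene after them is AUS1, a sterol uptake transporter used without oxygen. PDR11, the other such transporter, lies close to TIR3, and DAN4, a further wall mannoprotein gene, lies beside DAN1. None of the 3 was called: AUS1 had a log2 difference of -0.06 ± 0.0608, PDR11 one of -0.06 ± 0.0905 and DAN4 one of -0.17 ± 0.093 (SE; limma, adjusted p = 0.403, 0.563 and 0.128). These 3 were singled out after their values were seen. They are long genes (4185, 4236 and 3486 nt). With the length trend removed AUS1 was at 0.22 and called as a rise (limma, adjusted p = 0.0344). PDR11 and DAN4 were then at 0.22 and 0.08, both not called. The probe sets of the related TIR genes may read each other's RNA, which could not be examined without probe sequences.

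Members were also set side by side by their profile, as the root mean square difference of the 6 log2 values after each gene's own mean was taken off. CWP1 was nearest to TIR3 among the members, at 0.79, and farthest from SED1, at 1.39. CWP2 and TIR2 were nearest to each other, at 0.06, and so were SED1 and TIP1, at 0.07, and TIR1 and DAN1, at 0.15. Among all genes, the profile of CWP1 was nearest to that of RTP1, which encodes a factor for nuclear import of RNA polymerase II, at 0.09. RTP1 (YMR185W) read 8.97, 9.09 and 8.99 with the empty plasmid and 11.53, 11.61 and 11.48 with yEVenus. The other 4 of the 5 nearest were YNL146C-A at 0.27, the homoserine acetyltransferase gene MET2 at 0.29, the glutaredoxin gene GRX8 at 0.33 and SPG1 at 0.33. Likeness over 6 arrays in 2 groups is mostly likeness of the group difference. With the length trend removed that difference was 2.46 for CWP1, 2.76 for RTP1 and 2.21 for MET2. It was 1.89 for SPG1 (288 nt), 1.63 for YNL146C-A (195 nt) and 1.47 for GRX8 (330 nt). The profile distances given here are without that removal.

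**Figure D4:**
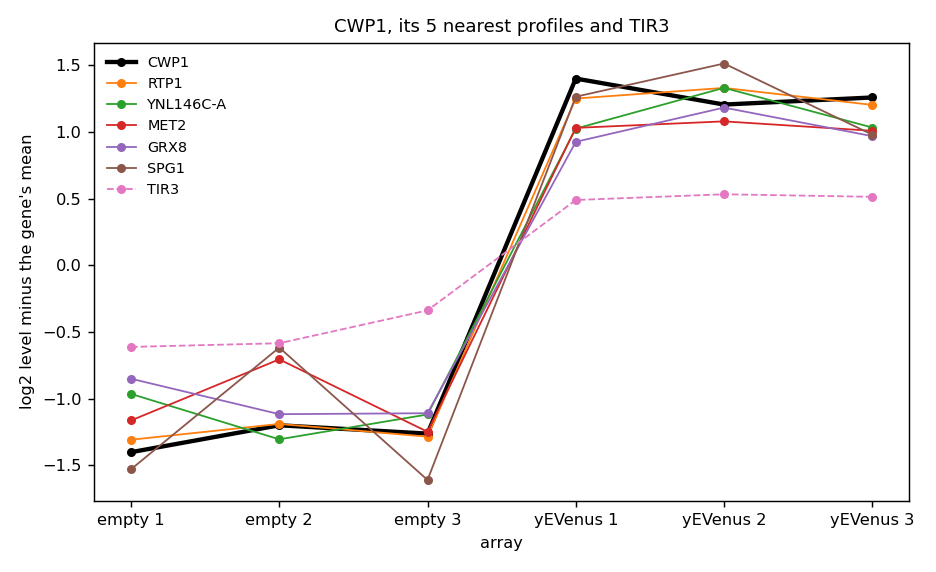
Log2 level minus the gene's mean over the 6 arrays (vertical axis) on each array (horizontal axis) for CWP1, the 5 genes with the nearest profile and TIR3 (dashed). RTP1 follows CWP1 within a root mean square difference of 0.09, the next 4 within 0.34, and TIR3 has the same direction at 0.79.

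Related genes were described from lists chosen from textbook knowledge. Every list count below stands beside all genes, of which 29.3% rose and 41% fell, or 29.4% and 35.8% with the length trend removed. Of the other GPI wall mannoproteins, 9 of 19 measured genes rose (47.4%), 1 fell (5.26%) and 9 were not called. Their median log2 difference was 0.15. AGA1, the anchor subunit of a-agglutinin, rose from 8.30 ± 0.0912 to 9.15 ± 0.1 (SD, n = 3 each; limma, adjusted p = 3.61e-05), and FIT2, a wall protein that helps retain iron, from 8.12 ± 0.0946 to 9.03 ± 0.125 (limma, adjusted p = 4.05e-05). With the length trend removed FIT2 (462 nt) was at 0.51 in place of 0.91, and AGA1 at 1.02 in place of 0.85. SPI1, the gene most like SED1, was named after its values were seen; it rose by 0.78, from 9.57 ± 0.315 to 10.35 ± 0.0762 (limma, adjusted p = 0.00154), where SED1 fell by 0.19, and with the length trend removed SPI1 was at 0.36 and not called (adjusted p = 0.0703). ECM33 was the gene that fell, by 0.13 (limma, adjusted p = 0.036); it lies on chromosome II, was at 0.17 with chromosome medians removed, and its call ended with the length trend removed (-0.01), with median centring and without empty-plasmid replicate 2 or 3 or any single yEVenus replicate. With the length trend removed, 14 of the 19 rose, and the 1 that fell was not ECM33 but CCW12. This short and abundant wall mannoprotein gene was named after its value was seen. CCW12 was at -0.49 there and at 0.00266, not called, without that removal. Its mean log2 level was 14.04 in both groups, near the top of the signal range, where the brightest probe set of an array read 14.17 to 14.24.

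The seripauperins (PAU genes) share the N-terminal domain of the Tip and Tir proteins but lack the serine-rich stretch. With DAN4, 14 of 25 were measured, of which 7 rose and 2 fell, with a median of 0.14. PAU2 rose by 0.56 and PAU23 by 0.28, while PAU7, on chromosome I, fell by 0.48 and PAU17 by 0.28 (limma, adjusted p = 0.00281, 0.00296, 0.00162 and 0.00663). The direction depended on length: with the trend removed the median was -0.30, with 10 falls and 0 rises in limma, also 0 rises at an unadjusted p under 0.05, and PAU23 was at -0.25 and PAU2 at 0.02, not called. The call of PAU7 ended with chromosome medians removed (-0.08), and that of PAU17 with the probe sets of a gene averaged (-0.10). The PAU genes are near-identical copies, so their probe sets can stand for several genes.

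Of 5 wall proteins of the PIR type, which are tied directly to β-1,3-glucan, 2 (40%) rose and 2 (40%) fell. Their median was -0.06, or 0.01 with 2 rises and 1 fall after median centring. PIR5 rose by 0.74 and PIR3 by 0.45, while PIR1 fell by 0.40 and HSP150 by 0.16 (limma, adjusted p = 0.000238, 0.00168, 0.00049 and 0.017); the HSP150 call ended with the length trend removed (-0.02), with median centring and without yEVenus replicate 2. Of 29 genes for wall glucan and chitin enzymes, 8 (27.6%) rose and 9 (31%) fell, where 29.3% of all genes rose and 41% fell. Their median was -0.07, as over all genes. The counts were 10 and 7 with median centring or cyclic loess. With the length trend removed 13 rose and 6 fell, with a median of 0.10. KNH1, a Kre9 relative in glucan synthesis, rose by 0.41 (limma, adjusted p = 0.000234). GAS2, a glucan elongase gene of spore walls, rose by 0.42 (limma, adjusted p = 0.000287). The septum chitin synthase gene CHS2 fell by 0.93 and KRE6, of β-1,6-glucan synthesis, by 0.46 (limma, adjusted p = 7.55e-05 and 0.000551). CHS2 lies on chromosome II and was at -0.63 with chromosome medians removed and at -0.70 with the length trend removed, still called in both.

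Of 8 regulators of the TIR and DAN genes, 6 (75%) fell and 0 rose in limma, where 41% of all genes fell and 29.3% rose. At an unadjusted p under 0.05 in limma, 0 rose as well. Their median log2 difference was -0.60, where that of all genes was -0.07. HAP1, the heme-responsive activator of ROX1, went from 9.92 ± 0.0693 to 9.20 ± 0.0482 and the corepressor gene TUP1 from 10.87 ± 0.0861 to 10.26 ± 0.163 (SD, n = 3 each; limma, adjusted p = 2.79e-05 and 0.000463). The other 4 that fell were named after their values were seen: CYC8 by 0.86, UPC2 by 0.83, ROX1 by 0.58 and MOT3 by 0.17. The 6 that fell include genes for repressors (ROX1, MOT3, TUP1, CYC8) and for the activator UPC2. The activator gene ECM22, a relative of UPC2, was at 0.09, and SUT1, which favours sterol uptake, at 0.10, both not called. The 8 regulators had a median coding length of 2293.5 nt, and genes of 1800 to 3600 nt had a median difference of -0.23. With the length trend removed, 5 fell and ECM22 rose, where 35.8% of all genes fell, and MOT3 was at -0.04. With median centring 5 fell and 2 rose, and with cyclic loess 5 fell and 1 rose. CYC8 lies on chromosome II and was at -0.56 with chromosome medians removed.

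Of 10 other genes of hypoxia, 4 (40%) rose and 1 (10%) fell, with a median of -0.01. With the length trend removed 6 rose and the other 4 were not called, with a median of 0.23. The median was 0.06 after median centring, where 4 rose and 6 were not called, as with cyclic loess. FET4, a low-affinity iron transporter gene, rose from 4.87 ± 0.025 to 6.27 ± 0.0431 and CYC7, the minor cytochrome c gene, from 6.37 ± 0.0643 to 8.28 ± 0.114 (SD, n = 3 each; limma, adjusted p = 2.74e-06 for both). With the length trend removed CYC7 (342 nt) was at 1.34 in place of 1.91, and FET4 at 1.51 in place of 1.40. OLE1, the fatty acid desaturase gene, fell by 0.21 (limma, adjusted p = 0.0242), a call that ended with the length trend removed (-0.08), chromosome medians removed (-0.13), cyclic loess, median centring or quantile normalization, and without empty-plasmid replicate 1 or 3 or yEVenus replicate 1 or 2.

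The members share a GPI anchor. Of 30 genes for its synthesis and transfer, 17 (56.7%) rose and 5 (16.7%) fell, where 29.3% of all genes rose and 41% fell. Their median was 0.19. With the length trend removed it was 0.37, with 21 rises and 4 falls, where 29.4% of all genes rose and 35.8% fell. ERI1, a subunit of the enzyme that starts anchor synthesis, rose from 10.16 ± 0.0936 to 11.44 ± 0.0759 (SD, n = 3 each; limma, adjusted p = 5.89e-06); it has 207 nt, and its difference of 1.28 was 0.65 with the length trend removed. GPI11, which acts in adding ethanolamine phosphate, rose by 1.16 (limma, adjusted p = 6.58e-06), or 0.99 with the trend removed. TED1, of anchor remodelling, fell by 0.31 and GPI16, a subunit of the GPI transamidase, by 0.34 (limma, adjusted p = 0.00174 and 0.00204). Within the transamidase, named in full after the values were seen, GPI8 and GAB1 rose by 0.25 and 0.55, GPI16 and GPI17 fell by 0.34 and 0.28, and GAA1 was at -0.16, not called. Likewise chosen after their values were seen, of the subunits of the enzyme that starts the anchor, GPI1, GPI2 and GPI15 rose by 0.74, 0.61 and 0.70 beside ERI1, while SPT14 was at 0.02 and GPI19, near the floor, at -0.16. DFG5, thought to act in joining GPI proteins to the wall and also chosen after its value was seen, rose by 0.42, and its homologue DCW1 was at -0.07, not called.

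**Figure D5:**
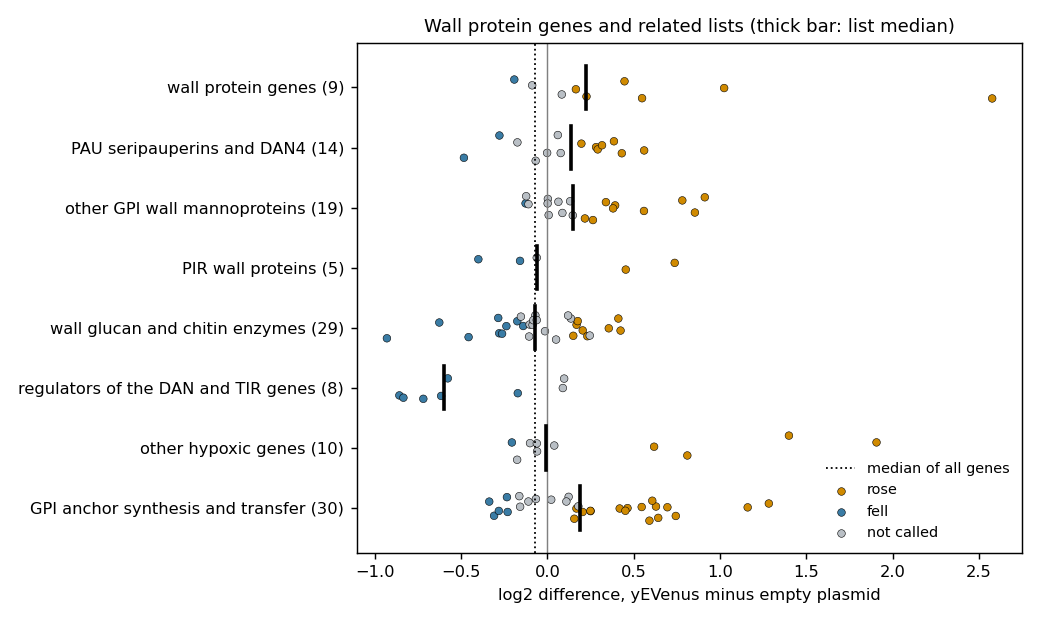
Log2 difference (yEVenus minus empty plasmid, horizontal axis) of each measured gene of the 9 wall protein genes and of 7 related lists, coloured by call; thick bars are list medians and the dotted line is the median of all genes, -0.07. The median of the regulators of the DAN and TIR genes lies at the left, at -0.60, and that of the GPI anchor genes right of the dotted line, at 0.19. Both lists also hold genes on the other side of that line, such as ECM22 (0.09) and GPI16 (-0.34).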

How the data were processed

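The values deposited by the authors are log2 levels of probe sets. Per the submitters' processing notes, RMA and R 3.2.0 were used; no build or filter is named there. RMA makes arrays alike in distribution, so differences are relative to the bulk of transcripts; array medians were 9.06 to 9.13. Of 5900 probe sets, 5498 name 1 gene, 0 several and 402 none. Symbols were updated (12 changed) and chromosome, gene order and coding length (introns included) taken from a RefSeq table of assembly R64, whose coordinates are not printed. The brightest probe set stood for each of 47 genes with several.

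The test was limma 3.58.1 (R 4.3.3; lmFit and eBayes, 4 residual degrees of freedom), p-values adjusted by Benjamini-Hochberg over 5449 genes, threshold 0.05; code was tested on simulated arrays. Precision is limited by having 3 arrays a group, where an exact two-sided permutation test could not reach below 0.1. The replicates are separate colonies of 1 strain per group. The length trend was a loess (span 0.5) on log2 coding length. Named genes were the members, SSE1, the 2 genes of smallest p in each direction of each list, and the 5 profiles nearest to CWP1; exceptions are marked. Members and lists were chosen with earlier results of these data known. No protein, promoter or probe sequence was used here.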

Additional observations from a re-analysis of the deposited data

Results flagged for a closer look

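Of 47 control probe sets for reporter and marker genes, which the comparison of named genes does not use, 2 were higher on every yEVenus array than on any empty-plasmid array by more than 1 log2 unit. The first went from 2.47 (2.27 to 2.65 over the empty-plasmid arrays) to 8.27 (8.21 to 8.39 over the yEVenus arrays) in log2, a difference of 5.80. Its target is not named in the files used here, and the other probe set with the same stem in its name was at 2.91 and 2.89. The second, also without a named target, went from 8.29 to 10.42, a difference of 2.13, and the other probe set with its stem was at 13.29 and 13.28. Reporter and marker probe sets also went the other way without overlap of the groups. The widest such fall was from 12.12 to 11.04, a difference of -1.08, and others were at -0.80.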

How the results depend on the processing

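Of 167 values of the 9 wall protein genes under 19 other settings, 136 kept their direction and side of the threshold, 23 lost the call, 5 gained one and 3 turned in direction with a call. CWP2 turned to -0.54 with the length trend removed and to -0.52 with both length trend and chromosome medians removed, a setting chosen after seeing the data; TIP1 turned to 0.21 with chromosome medians removed. PAU23 turned to -0.25 and -0.24 in the former pair of settings, and ECM33 to 0.17 with chromosome medians removed and 0.25 with both. CWP1 stayed between 2.46 and 2.66 in all 19, and TIR3 between 0.91 and 1.11 in the 18 that tested it. Against a minimum change of 1.2-fold, 1753 genes were called in place of 3835, and 3 wall protein genes, 1 PAU gene, 3 other GPI mannoproteins, 1 PIR gene, 5 glucan and chitin genes and 12 GPI anchor genes. Leaving out the dimmest 20% of genes (mean log2 level up to 7.70) removed 4 of the 9 wall protein genes, TIR1, TIR3, TIR4 and DAN1. Of those left, 3 were called as before (CWP1, SED1 and TIR2), and CWP2 and TIP1 were again not called. In the other lists, 5 PAU genes and 2 other hypoxic genes were then called. With length and chromosome both removed, 16 other GPI mannoproteins were called; the cause was not tested. Leaving out each array gave 3359 to 3809 genes and 4 to 6 wall protein genes.

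With the replicate number as a block, 3827 genes and 6 wall protein genes were called, TIR2 (adjusted p = 0.0571 in limma) being lost, and ECM33 (adjusted p = 0.064). Same-numbered arrays of the groups had deviations correlated at 0.193, -0.129 and 0.196, so the numbers are not taken as pairs. Removal of the length trend also moves genes at the floor: the deleted SSE1 went from 0.03 to 0.18 and was then called (adjusted p = 0.0498 in limma, or 0.0472 with chromosome medians removed as well), which bears on every count given with the length trend removed.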
